A study of Mus musculus with 31 samples.

Results

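The comparison described here is the effect of dietary fat on colonic gene expression in mice that received propionate: 4 arrays from mice on a high-fat diet (HFD) against 4 from mice on a low-fat diet (LFD), 8 of the 31 samples of the series. The samples were chosen by their labels alone, and every probe set with 1 gene symbol entered. All mice were male C57Bl/6J, housed singly, and their labelled age is 13 weeks. They had eaten a palm-oil based semi-synthetic diet with 10% (LFD) or 45% (HFD) of its energy from fat for 2 weeks before the infusions began. Under isoflurane and nitrous oxide sedation, 80 µL of saline with 100 mM sodium propionate was then given on 6 consecutive days through a tip placed 3 cm into the rectum. The colon was removed 4 h after the last dose, and the lining was scraped off for RNA. The other groups received saline alone, sodium acetate or sodium butyrate on the same diets. By the labels a group had 6 mice, but an array is not tied to a mouse, so p-values measure the spread between these samples, which may be technical. In such scrapings of mixed cells, fewer cells of a type and less RNA per cell cannot be told apart.

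Propionate is a short-chain fatty acid that gut bacteria make from fibre. Colon cells take it up, activate it to propionyl-CoA and feed it through methylmalonyl-CoA into the citric acid cycle. Cells that run short of sterols or unsaturated fatty acids switch on the enzymes that make them through the SREBP transcription factors, and dietary lipid is known to lower that programme.

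Levels are log2 intensities after RMA, the array summary the authors deposited, and differences are HFD minus LFD on that scale. A difference of 1 is a doubling. Of 18820 genes, 12795 were bright enough to be tested, with limma fitted to all 31 arrays and p-values adjusted by Benjamini-Hochberg over all 12795. Array medians lay between 5.14 and 5.19. The 8 arrays correlated with each other at an r of 0.984 to 0.994 within a diet and 0.981 to 0.990 between the diets. Markers of epithelium and of colonocytes were bright (list means of 11.06 to 11.26 and 11.67 to 11.86), and those of smooth muscle, endothelium and nerve were dim (4.49 to 5.84). The LFD array 2 stood apart in transcripts of small-intestinal lipid absorption, such as Apoa1 and Apoa4, with a list mean of 8.48 against 6.66 to 6.97 on the other 7 arrays.

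Under propionate 879 of the 12795 genes differed between the diets at an adjusted p of 0.05, which is 6.87% of those tested, and 24.4% had an unadjusted p below 0.05. On HFD 617 were lower (4.82%) and 262 higher (2.05%). The median difference over all genes tested was -0.02, and the median size among the genes that passed was 0.397. Lipid-making enzymes fell most, and small noncoding RNAs rose most. All 12 genes that fell by more than 2-fold code for proteins, and 8 of them are enzymes of sterol or fatty acid synthesis. Of the 19 that rose by more than 2-fold, 16 were short noncoding RNAs and none were protein-coding. The 4 HFD arrays did not overlap the 4 LFD arrays in 487 of the 617 lower and 213 of the 262 higher genes, where 8.77% and 5.22% of all genes tested stood apart in these directions. The genes were called from these same arrays, so a larger share among them follows in part from the choice. How many genes passed rested on single arrays: without the HFD array 2 there were 11, without LFD 3 there were 33, without HFD 3 there were 52, without LFD 4 there were 114 and without LFD 1 there were 464. Without the HFD array 1 there were 1731. All 879 kept their direction when each of the 8 arrays was left out in turn, and 10 also kept an adjusted p below 0.05 each time. Such fits share most arrays with the full fit, so a kept direction adds little. With the mean level of the small nucleolar RNAs as a covariate no gene passed, and that mean itself did not overlap between the diets.

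**Figure D1:**
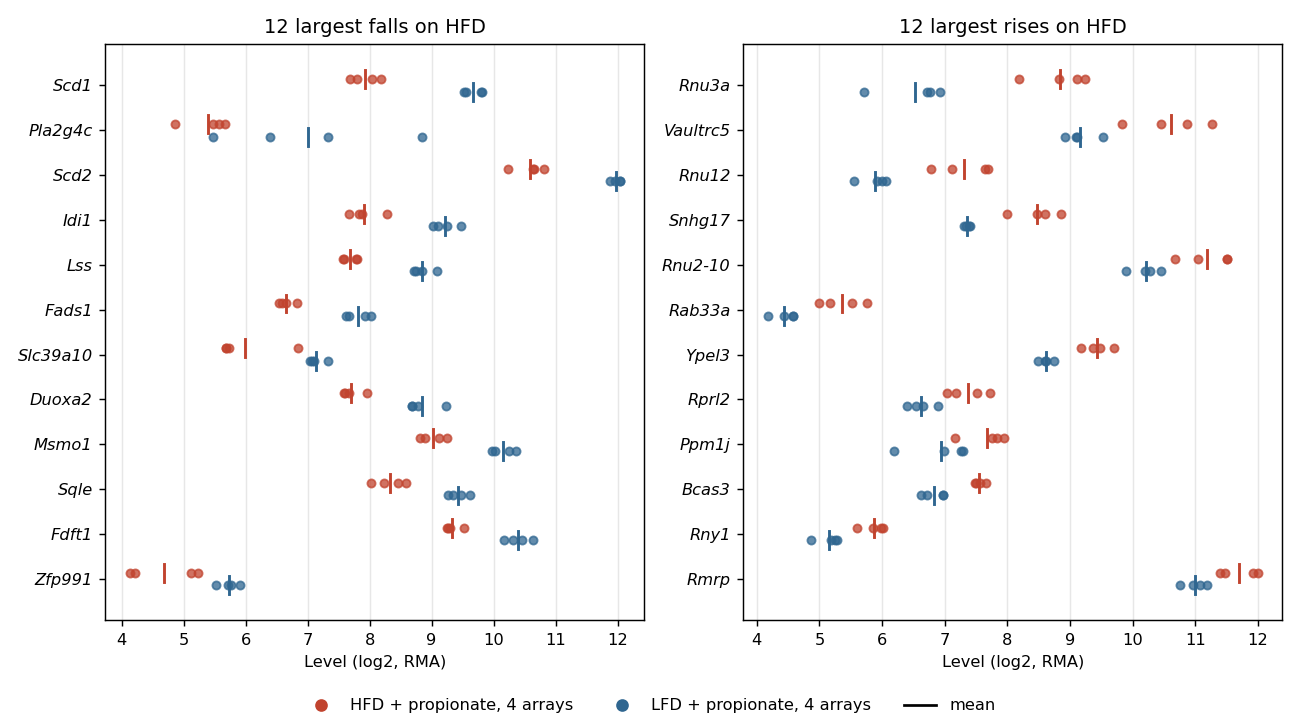
Level on a log2 axis of the 12 genes with the largest fall (left) and the 12 with the largest rise (right) on HFD. They were taken from the genes that passed, leaving out gene models without a descriptive name, microRNAs and small nucleolar RNAs. Each point is 1 of the 4 arrays of a diet under propionate and each short bar a mean. Only Pla2g4c among the falls and Ppm1j among the rises have arrays of the 2 diets that overlap.

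The largest fall was in Scd1, the desaturase that puts a double bond into stearate and palmitate. Its level was 7.80, 8.05, 7.68 and 8.19 on the HFD arrays and 9.56, 9.81, 9.80 and 9.52 on the LFD arrays. The diets were separated by more than a whole log2 unit with no overlap, a difference of -1.74 ± 0.30 (SE; limma, adjusted p = 0.0133, n = 4 and 4), or 3.35-fold lower on HFD. Scd2, its close relative, read 10.65, 10.82, 10.64 and 10.23 on HFD against 11.96, 11.88, 12.04 and 12.04 on LFD. It fell by 1.39 ± 0.27 (adjusted p = 0.0133), again without overlap. Fads1, the delta-5 desaturase of long polyunsaturated fatty acids, read 6.66, 6.83, 6.54 and 6.58 on HFD and 7.67, 7.62, 7.93 and 8.02 on LFD. It fell by 1.16 ± 0.23 (adjusted p = 0.0133). These 3 desaturases kept an adjusted p below 0.05 without each of the 8 arrays in turn.

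Fatty acid synthesis and desaturation had 8 falls and no rise among its 16 tested genes, where 4.82% of all genes tested fell. All 16 lay below 0 (54.3% of all genes tested did), with a median of -0.42. The mean of the list was 8.07 to 8.19 on HFD and 8.67 to 8.74 on LFD. Acaca, which makes malonyl-CoA in the committed step, fell by 0.47 ± 0.10 (adjusted p = 0.0156), and Fasn, the synthase, by 0.51 ± 0.15 (adjusted p = 0.0426). Acaca passed in 5 of the 8 fits that left out an array, and Fasn in 0. The elongases Elovl1 and Elovl5 and the transcription factor Srebf1 also fell, Srebf1 by 0.56 ± 0.15 (adjusted p = 0.026). Elovl1 passed in 1 of those 8 fits, Elovl5 in 3 and Srebf1 in 4. Elovl6 missed the threshold with -0.48 (95% interval -0.78 to -0.17, adjusted p = 0.0517), as did Fads2 with -0.34 (-0.71 to 0.03) and Mlxipl, another regulator of lipogenesis, with -0.05 (-0.31 to 0.21). Without single arrays, between 3 and 8 members of the list passed, and its median stayed between -0.46 and -0.39. Pgd, which supplies NADPH in the pentose phosphate pathway, and Got1, the cytosolic aspartate aminotransferase, were named after their values were seen because they passed without each array in turn. Pgd fell by 0.38 ± 0.07 and Got1 by 0.85 ± 0.16 (both adjusted p = 0.0133).

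Of 20 tested genes of cholesterol synthesis and uptake 14 fell, from the mevalonate arm to the sterol ring steps, where 4.82% of all genes tested fell. None of the 20 rose, and all 20 lay below 0, with a median of -0.85. The mean level of the list was 8.24, 8.26, 8.2 and 8.10 on the HFD arrays and 8.81, 8.97, 8.88 and 9.08 on the LFD arrays, so the diets did not overlap. In the mevalonate arm, Hmgcs1, which condenses acetoacetyl-CoA with acetyl-CoA, read 9.06, 8.97, 8.80 and 8.63 on HFD and 9.70, 9.90, 9.70 and 9.92 on LFD. Its difference was -0.94 ± 0.24 (adjusted p = 0.0228). Mvk, Pmvk, Mvd and Fdps fell by 0.51 to 0.98. Mvk passed in 0 of the 8 fits that left out an array, Pmvk in 2, and Mvd and Fdps in 4 each. Idi1, the isopentenyl diphosphate isomerase, fell furthest, from a mean of 9.21 to 7.91 (-1.30 ± 0.28, adjusted p = 0.0156), and both of its probe sets fell alike (-1.39 and -1.30).

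At the squalene branch point and below, Fdft1 (squalene synthase) fell by 1.06 ± 0.21 (adjusted p = 0.0133), Sqle (squalene epoxidase) by 1.10 ± 0.25 (adjusted p = 0.0162) and Lss (lanosterol synthase) by 1.16 ± 0.26 (adjusted p = 0.0156). Msmo1, a sterol methyl oxidase, read 9.25, 9.13, 8.90 and 8.82 on HFD and 9.98, 10.24, 10.03 and 10.35 on LFD (-1.13 ± 0.25, adjusted p = 0.0156). Cyp51, Tm7sf2, Nsdhl and Hsd17b7 fell by 0.58 to 0.90. Hsd17b7, which reduces the 3-keto group of sterol intermediates, is the member of the pathway that passed without each of the 8 arrays in turn (-0.83 ± 0.16). The 6 members that missed the threshold were Ebp, Sc5d and Dhcr7 at the end of the pathway, the feedback protein Insig1 (-0.59, 95% interval -0.98 to -0.21, adjusted p = 0.0538), the regulator Srebf2 (-0.29, -0.51 to -0.06) and the sterol carrier Stard4 (-0.27, -0.49 to -0.06). Without the HFD array 2 only 1 member of the list passed and without LFD 3 only 2, while its median stayed between -0.89 and -0.76 whichever array was left out.

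The promoters of these genes were searched because members moved together. RefSeq windows on GRCm38.p6, from 250 bases before to 50 after a gene's start, were in the table used for 16 of the 20 cholesterol genes. All 16 held a CCAAT box (CCAAT on either strand), which 42.4% of the 10147 tested genes with a window also held. The sterol regulatory element, searched as TCACNCCAC on either strand, was in 1 of the 16, Hmgcs1, against 1.39% of tested genes. The 250 bases before the start are shown for Hmgcs1, with the sterol element in capitals, and for Idi1 and Lss, with each CCAAT box (here on the opposite strand, so written ATTGG) in capitals.
Hmgcs1, chr13:119690101-119690350, plus strand: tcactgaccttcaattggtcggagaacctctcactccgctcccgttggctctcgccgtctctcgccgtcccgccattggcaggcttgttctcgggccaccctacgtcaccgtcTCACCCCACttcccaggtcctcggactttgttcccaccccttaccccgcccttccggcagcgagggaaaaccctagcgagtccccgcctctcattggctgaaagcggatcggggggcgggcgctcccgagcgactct
Idi1, chr13:8885356-8885605, plus strand: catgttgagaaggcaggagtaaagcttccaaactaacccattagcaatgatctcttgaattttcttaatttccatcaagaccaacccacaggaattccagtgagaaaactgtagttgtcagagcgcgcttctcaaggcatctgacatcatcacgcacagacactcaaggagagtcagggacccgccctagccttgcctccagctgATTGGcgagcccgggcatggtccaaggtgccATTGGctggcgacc
Lss, chr10:76531355-76531604, plus strand: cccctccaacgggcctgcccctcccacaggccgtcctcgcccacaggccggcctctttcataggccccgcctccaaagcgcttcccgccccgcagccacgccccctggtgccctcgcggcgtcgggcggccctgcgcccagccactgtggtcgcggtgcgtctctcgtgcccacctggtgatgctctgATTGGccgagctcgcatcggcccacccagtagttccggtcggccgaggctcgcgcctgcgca
The sterol element of Hmgcs1 begins 137 bases before the start, the first CCAAT box of Idi1 45 bases before it and that of Lss 62. A match is a description of these letters and says nothing of which factor was bound.

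**Figure D2:**
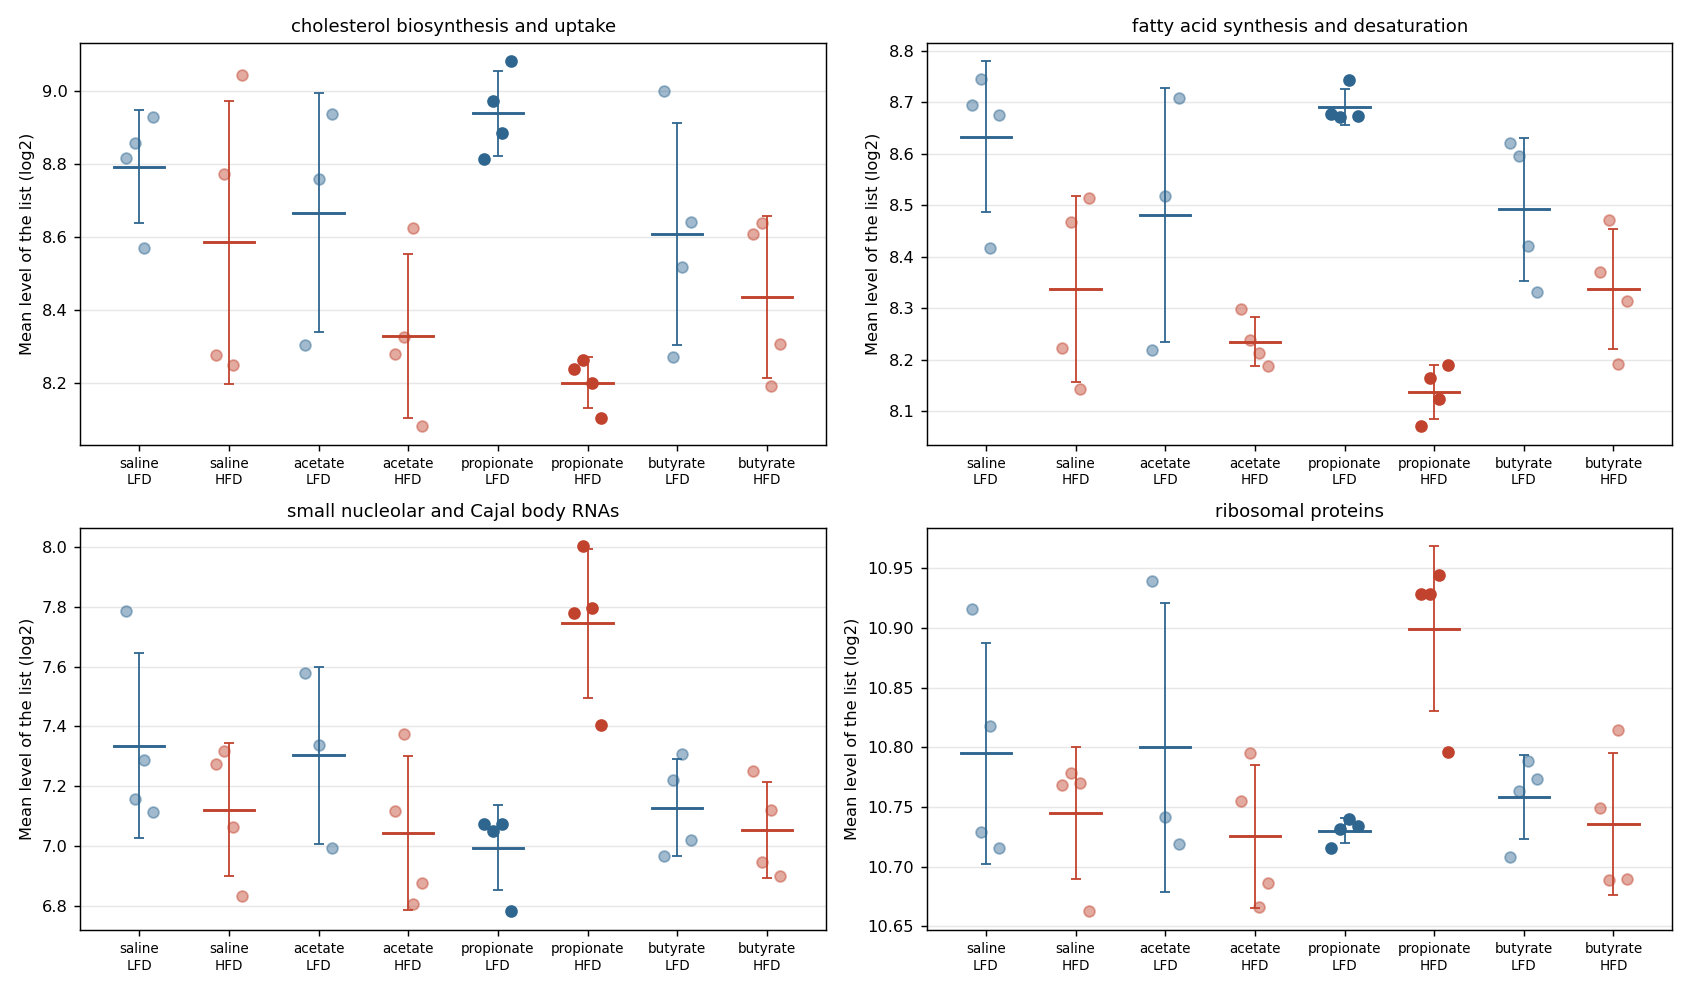
Mean log2 level of 4 gene lists on each of the 31 arrays, by infusion and diet (blue LFD, red HFD, propionate in full colour). Long bars are group means and error bars SDs of the arrays (n = 4, for acetate LFD n = 3). Under propionate the cholesterol list lay at 8.10 to 8.26 on HFD and 8.81 to 9.08 on LFD, and the small nucleolar RNAs at 7.40 to 8.00 on HFD and 6.78 to 7.07 on LFD.

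The same lists lay lower on HFD under the other infusions too, by less. The cholesterol list had a median difference of -0.17 under saline, -0.35 under acetate and -0.20 under butyrate, and the fatty acid list -0.19, -0.24 and -0.08. Without propionate the arrays of 1 group were spread widely: the cholesterol list ran from 8.25 to 9.04 over the 4 saline HFD arrays, against 8.10 to 8.26 over the 4 propionate HFD arrays. Scd1 differed between the diets by -1.18 under saline, -0.81 under acetate and -0.90 under butyrate. When the diet difference under propionate was tested against the mean of the other 3, none of the 20 cholesterol genes and none of the 16 fatty acid genes passed, in a comparison in which 0.821% of all genes did. For Scd1 that difference had an adjusted p of 0.22 and for Fdft1 of 0.064 (limma).

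Lipid genes outside synthesis were mixed. Pla2g4c, a cytosolic phospholipase A2, fell by 1.62 ± 0.49 (adjusted p = 0.045), with 5.47, 5.57, 4.86 and 5.67 on HFD and 7.33, 8.85, 5.47 and 6.40 on LFD. Its LFD arrays were far apart, and the third of them lay among the HFD arrays. Without LFD 2, the array high in small-intestinal transcripts, the difference was -1.01 (adjusted p = 0.167), and the gene passed in 2 of the 8 fits that left out an array. Lpin1, a phosphatidate phosphatase, fell by 0.87 ± 0.21 (adjusted p = 0.0192) and Lpcat3, which puts polyunsaturated chains into phospholipids, by 0.47 ± 0.11 (adjusted p = 0.0156). They were the 2 of 19 phospholipid remodelling genes that passed, where 4.82% of all genes tested fell and 2.05% rose. Pafah2, which removes oxidised and short chains from phospholipids, read 7.66, 7.74, 7.64 and 7.80 on HFD and 8.24, 8.16, 8.33 and 8.11 on LFD. It fell by 0.50 ± 0.09 (adjusted p = 0.0133) and passed without each array in turn. Fat-burning genes moved little. In mitochondrial fatty acid oxidation Acadl rose by 0.35 and Echs1 fell by 0.43 among 17 genes, and among 10 peroxisomal genes Acaa1a rose by 0.42. None of 16 PPAR targets passed: Pdk4 differed by 0.29 (95% interval -0.51 to 1.09), Angptl4 by 0.38 (-0.17 to 0.92) and Slc27a2 by 0.59 (0.20 to 0.98, adjusted p = 0.0545).

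Some members of the lists on propionate and other short-chain acids passed, but the propionyl-CoA carboxylase, the methylmalonyl-CoA mutase and the transporters did not. In the route from propionyl-CoA to succinyl-CoA, 2 of 13 genes fell and none rose, with a median of -0.19, where 4.82% of all genes tested fell. Mmab, which makes the cobalamin cofactor of methylmalonyl-CoA mutase, read 6.25, 6.36, 6.29 and 6.25 on HFD and 6.95, 7.0, 6.94 and 7.30 on LFD. It fell by 0.76 ± 0.17 (adjusted p = 0.0156), with all HFD arrays below all LFD arrays. The other was Suclg2, a subunit of succinyl-CoA ligase (-0.33, adjusted p = 0.0465). Pcca and Pccb, the 2 subunits of propionyl-CoA carboxylase, differed by -0.17 (-0.35 to 0.01) and 0.11 (-0.05 to 0.27), and the mutase Mmut by -0.19 (-0.36 to -0.02, adjusted p = 0.157). Bdh1 and Echs1 fell among 10 genes of short-chain acid activation and breakdown. None of 10 transporters and receptors passed: the transporters Slc16a1 and Slc5a8 differed by 0.13 (-0.12 to 0.38) and -0.15 (-0.31 to 0.02), and the receptor Ffar2 by -0.08 (-0.39 to 0.24).

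Genes of energy metabolism, protein turnover and growth also lay lower on HFD. In the citric acid cycle 6 of 20 genes fell and none rose (median -0.21), among them Dld (-0.49), Idh3a (-0.46) and the citrate synthase gene Cs (-0.25). In glycolysis 4 of 15 fell (median -0.20): Pgam1, Tpi1, Pfkp and Ldha. Oxidative phosphorylation had 4 falls and 1 rise, Cox4i1, among 44 genes (median -0.095). Over all genes tested 4.82% fell and 2.05% rose. Of 30 proteasome subunits 10 fell and none rose (median -0.24), led by Psmd14 (-0.64 ± 0.15, adjusted p = 0.0187), and of 74 mitochondrial ribosomal proteins 14 fell and none rose (median -0.14). Without the HFD array 2 none of the members of the citric acid cycle, proteasome, mitochondrial ribosome and cell cycle lists passed. The same held for these lists without LFD 3, while their medians kept their sign.

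Among 30 cell cycle genes 8 fell, none rose and 29 lay below 0, where 4.82% of all genes tested fell and 54.3% lay below 0. The list had a median of -0.40, against -0.05 for the mean of the other infusions, although none of the 30 passed the test of that difference. The 8 that fell work in DNA replication: Mcm2, Mcm4, Mcm5, Mcm6 and Mcm7 of the replicative helicase, Rrm1 and Rrm2 of ribonucleotide reductase, and the thymidine kinase Tk1. These genes passed in 0 (Tk1) to 4 (Mcm5 and Mcm7) of the 8 fits that left out an array. Mcm5 read 7.43, 7.41, 7.20 and 6.75 on HFD and 7.82, 7.79, 8.03 and 8.2 on LFD (-0.76 ± 0.18, adjusted p = 0.0194). The arrays did not overlap, and HFD 4 was the lowest. Members that missed the threshold ran from -0.71 for the checkpoint kinase Bub1 (adjusted p = 0.0558) to 0.13 for Birc5. None of 13 stem and progenitor markers passed either (median -0.08).

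Chaperones of the endoplasmic reticulum lay lower on HFD. Among all genes tested 4.82% fell. The unfolded protein response list held 4 falls and no rise among 21 genes, with a median of -0.35: Sdf2l1 (-0.99 ± 0.25), Creld2 (-0.90 ± 0.24), Hspa5, the main chaperone of that compartment (-0.68 ± 0.21), and Calr (-0.41 ± 0.11), at adjusted p of 0.0237, 0.0299, 0.0462 and 0.0257. Creld2 read 8.54, 8.47, 8.41 and 8.52 on HFD and 9.37, 9.30, 9.37 and 9.49 on LFD, 2 tight groups without overlap. Without HFD 2, HFD 3, LFD 3 or LFD 4 none of the 21 passed, and the median stayed between -0.43 and -0.31. The ER stress element (a CCAAT box and CCACG with 9 bases between them, on either strand, so that it overlaps the CCAAT search) was in 8 of the 18 windows found for these genes, against 0.148% of tested genes. Of the genes that passed, Creld2, Hspa5 and Calr held the element, and Sdf2l1, with the largest fall of the list, did not. Hsp90b1, Pdia6, Canx, Dnajc3 and Ero1b held it and missed the threshold. The list gathers known genes of this response, so the share may follow from how the list was drawn up. The element is shown in capitals in the 250 bases before the start of both Creld2 and Hspa5, beginning 126 and 65 bases before the start.
Creld2, chr15:88819396-88819645, plus strand: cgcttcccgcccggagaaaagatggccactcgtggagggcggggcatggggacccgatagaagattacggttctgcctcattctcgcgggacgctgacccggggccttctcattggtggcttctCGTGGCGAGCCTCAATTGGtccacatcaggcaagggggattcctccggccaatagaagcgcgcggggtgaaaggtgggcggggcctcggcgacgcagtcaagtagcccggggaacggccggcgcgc
Hspa5, chr2:34771840-34772089, plus strand: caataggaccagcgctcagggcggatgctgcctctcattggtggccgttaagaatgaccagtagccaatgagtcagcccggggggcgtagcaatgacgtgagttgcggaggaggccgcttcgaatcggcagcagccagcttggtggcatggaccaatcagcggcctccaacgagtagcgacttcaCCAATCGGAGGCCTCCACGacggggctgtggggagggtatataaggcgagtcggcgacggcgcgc
In the cytosol and mitochondria, Hspd1 was the 1 of 14 heat shock chaperones that fell (-0.59 ± 0.17, adjusted p = 0.0354). That share is near the 4.82% of all genes tested that fell. Hsp90aa1 read 9.78, 9.33, 9.16 and 9.26 on HFD and 10.01, 10.18, 10.30 and 10.51 on LFD without overlap, yet missed the threshold (-0.87, 95% interval -1.48 to -0.25, adjusted p = 0.0721). The heat shock list had almost the same median under propionate (-0.30) as over the other infusions (-0.27).

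Among genes of epithelial defence, Duoxa2, the maturation factor of the hydrogen peroxide-producing oxidase Duox2, read 7.67, 7.96, 7.59 and 7.6 on HFD and 8.68, 9.23, 8.68 and 8.78 on LFD. It fell by 1.14 ± 0.26 (adjusted p = 0.0156), Duox2 itself by 0.56 ± 0.15 (adjusted p = 0.0313) and the fucosyltransferase Fut2 by 0.33 ± 0.10 (adjusted p = 0.0445). They were the 3 of 20 antimicrobial genes that passed, where 4.82% of all genes tested fell. Duox2 and Fut2 each passed in only 1 of the 8 fits that left out an array, and Duoxa2 in 5. The antimicrobial lectin Reg3g differed by -1.65 but with an interval of -3.00 to -0.30 (adjusted p = 0.119), and Retnlb by -0.10 (-1.25 to 1.04). None of the interferon, MHC class II, acute inflammation and glucocorticoid target lists had a member that passed. The zinc importer Slc39a10 fell by 1.14 ± 0.28 (adjusted p = 0.02), although HFD 1 at 6.85 lay near the LFD arrays (7.03 to 7.33) and apart from the other HFD arrays (5.68 to 5.74). Cldn2, a pore-forming claudin, fell by 0.63 ± 0.15 (adjusted p = 0.0162).

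Short noncoding RNAs made up most of the rises above 2-fold, although 204 of all 262 genes that rose code for proteins. Of 55 small nucleolar and Cajal body RNAs, which guide the chemical modification of ribosomal and spliceosomal RNA, 34 rose and none fell, with a median of 0.65. By comparison 2.05% of all genes tested rose. The mean level of these RNAs was 7.78, 8.00, 7.79 and 7.40 on the HFD arrays and 7.07, 7.05, 7.07 and 6.78 on the LFD arrays, without overlap. Snora20 read 6.19, 6.25, 6.65 and 5.96 on HFD and 4.63, 4.72, 5.20 and 4.79 on LFD. It rose by 1.43 ± 0.26 (adjusted p = 0.0133) and is the 1 RNA of the list that passed without each array in turn. Snora74a rose by 1.73 ± 0.35, Snora44 by 1.37 ± 0.27 and Snord55 by 0.88 ± 0.18 (all adjusted p = 0.0133). Without the HFD array 2 only Snora20 passed, and the median stayed between 0.59 and 0.73 whichever array was left out. Probe sets of such RNAs can also read near-identical copies and, where the RNA lies in an intron, its host transcript.

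Other short RNAs outside that list rose as well. Rnu3a had the largest rise of all. It is a gene of U3, itself a small nucleolar RNA that takes part in cutting the ribosomal RNA precursor. Rnu3a stood outside the list, which was drawn up by gene symbol, and the annotation classes it as a small nuclear RNA. It read 9.11, 9.25, 8.83 and 8.19 on HFD and 6.93, 6.76, 6.71 and 5.72 on LFD (2.31 ± 0.50, adjusted p = 0.0156, or 4.97-fold). Rnu12 and Rnu2-10, spliceosomal RNAs, rose by 1.42 ± 0.37 and 0.97 ± 0.26, the RNA of RNase MRP (Rmrp) by 0.70 ± 0.20 and the Y RNA Rny1 by 0.72 ± 0.20. The vault RNA Vaultrc5 read 9.84, 10.87, 11.26 and 10.46 on HFD and 9.12, 9.10, 9.52 and 8.93 on LFD (1.44 ± 0.34, adjusted p = 0.0175). Taken by RefSeq's classes, a grouping made after these values were seen, 44 of 76 short noncoding RNAs other than microRNAs rose and none fell. Of 113 microRNA genes 3 rose and none fell, a share of 2.65% near the 2.05% of all genes tested that rose.

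The 3 microRNA genes, named after their values were seen, are Mir185, Mir196a-1 and Mir92b, with fold changes of 1.23, 1.45 and 1.37. The arrays read the gene region and not the mature strand. A mature strand of each is shown from RefSeq on GRCm38.p6, with the seed (bases 2 to 8) in capitals.
miR-185-3p, chr16:18327405-18327425, minus strand: aGGGGCUGgcuuuccucuggu
miR-196a-5p, chr11:96265187-96265208, plus strand: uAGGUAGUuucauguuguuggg
miR-92b-3p, chr3:89227126-89227147, minus strand: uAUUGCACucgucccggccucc
The 3 seeds differ from each other.

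Some longer noncoding transcripts that small RNAs are cut from, and some ribosomal proteins, also rose. In a list of 8 such genes 4 rose: Snhg17, Snhg15 and Snhg20, which carry small RNAs in their introns, and Malat1, a nuclear RNA with a small RNA at its 3' end. Snhg17 read 8.60, 8.85, 8.48 and 7.99 on HFD and 7.41, 7.31, 7.39 and 7.33 on LFD (1.12 ± 0.22, adjusted p = 0.0133). Malat1 read 11.57, 11.69, 11.69 and 11.68 on HFD and 11.28, 11.19, 11.02 and 11.17 on LFD (0.49 ± 0.10, adjusted p = 0.0133). Of 66 ribosomal proteins 15 rose and none fell, where 2.05% of all genes tested rose. Of the 66, 61 lay above 0 (45.7% of all genes tested did), but by little: the median was 0.13. The list mean was 10.80 to 10.94 on HFD and 10.72 to 10.74 on LFD. Rpl24 rose by 0.61 ± 0.16 (adjusted p = 0.0275) and Rps27 by 0.50 ± 0.11 (adjusted p = 0.0156). None of the 66 passed without HFD 2, HFD 3, LFD 3 or LFD 4. These genes have many near-identical copies that their probe sets may also read.

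The other rises named here were of single genes. The GTPase gene Rab33a rose by 0.92 ± 0.27 (adjusted p = 0.0393), Ypel3 by 0.82 ± 0.22 (adjusted p = 0.0267) and Bcas3 by 0.73 ± 0.18 (adjusted p = 0.0217). Rab33a passed in 1 of the 8 fits that left out an array, Ypel3 in 2 and Bcas3 in 4. Ypel3 read 9.18, 9.37, 9.47 and 9.69 on HFD and 8.61, 8.60, 8.74 and 8.49 on LFD, without overlap. Sardh, the mitochondrial sarcosine dehydrogenase, passed without each array in turn and was named for that after its values were seen. It rose by 0.48 ± 0.09 (adjusted p = 0.0133), with 6.55, 6.64, 6.69 and 6.6 on HFD and 6.13, 6.17, 6.06 and 6.20 on LFD. The clock gene Cry2 rose by 0.44 ± 0.11 (adjusted p = 0.0195), the 1 member of 15 in its list. Among marker lists of cell types, Bcas1 and Sytl2 of 10 goblet cell genes (median 0.06) rose. So did Cd83 of 14 genes of macrophages and dendritic cells (median 0.07), where 2.05% of all genes tested rose. Bcas1 and Sytl2 each passed in 2 of the 8 fits that left out an array, and Cd83 in 0. In the lipid absorption list Slc5a1, the sodium-glucose cotransporter, fell by 0.39 (adjusted p = 0.0156), and the 21 members had a median of -0.25, which was -0.06 without LFD 2. The 1 fall among these 21 is near the 4.82% of all genes tested that fell. No member of the other marker lists passed.

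**Figure D3:**
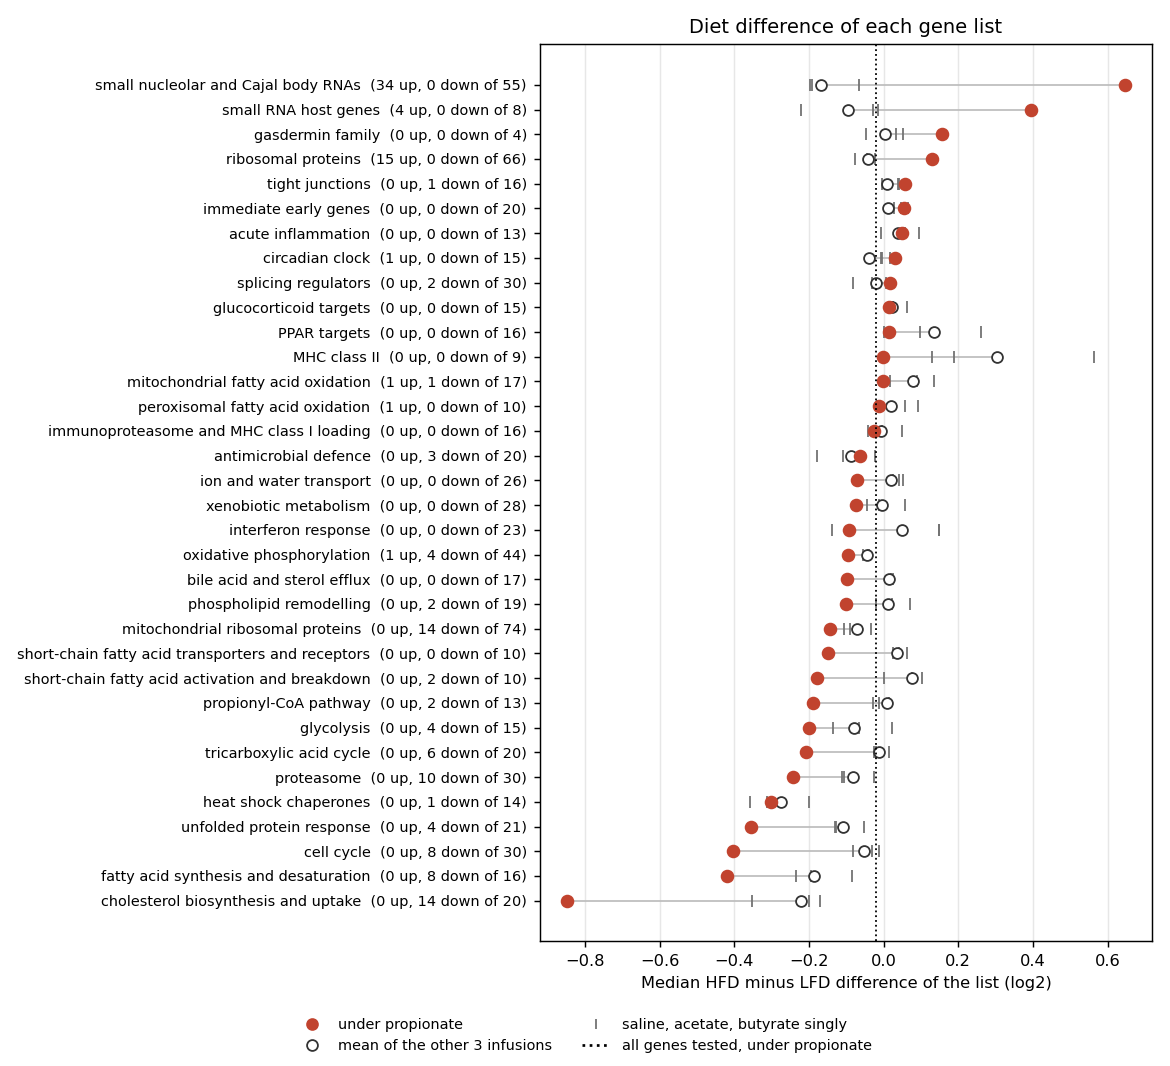
Median HFD minus LFD difference (log2) of each gene list of at least 4 tested genes, cell type markers left out. Filled points are under propionate, open points the mean of saline, acetate and butyrate, ticks these 3 singly, and the dotted line the median of all genes tested under propionate (-0.02). The cholesterol list is lowest at -0.85 and the small nucleolar and Cajal body RNAs highest at 0.65.

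Whether these diet differences were particular to propionate was tested directly. Against the diet difference under saline no gene passed (limma, smallest adjusted p = 0.141, with 1643 genes at an unadjusted p below 0.05). Against the mean of saline, acetate and butyrate 105 genes passed, 60 with a higher and 45 with a lower difference under propionate. Of the 105, 96 also passed between the diets under propionate itself. Of 55 small nucleolar and Cajal body RNAs 26 were among the 60, where 0.469% of all genes tested were. They lay slightly lower on HFD without propionate, with list medians of -0.19 under saline, -0.20 under acetate and -0.07 under butyrate. Rnu3a differed by -0.45, -1.07 and -0.33 under these, so that its difference of differences was 2.93. Of 66 ribosomal proteins 7 were among the 60, and so were Snhg17, Snhg15 and Malat1. No gene passed here without HFD 2, HFD 3, LFD 1, LFD 3 or LFD 4, 94 passed without LFD 2, and 664 and 338 without HFD 1 and HFD 4.

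The 45 genes with a lower difference under propionate had a median of 0.08 over the other infusions, from -0.05 to 0.27. In 40 of them the mean over the other infusions was above 0, and in 20 above 0.1. They were picked for a difference under propionate below that mean, so values above 0 there follow in part from the choice. Ift20, a protein of intraflagellar transport, read 9.99, 9.79, 9.73 and 9.97 on HFD and 10.33, 10.41, 10.36 and 10.41 on LFD. It fell by 0.51 ± 0.09 under propionate (adjusted p = 0.0133), and differed between the diets by 0.03, 0.06 and 0.01 under saline, acetate and butyrate. Pafah2, at -0.50 under propionate, differed by 0.02, -0.02 and 0.04 there. Zfp991, a zinc finger gene, fell by 1.06 ± 0.20 under propionate, with HFD 2 and HFD 3 (4.13 and 4.22) well below HFD 1 and HFD 4 (5.12 and 5.23). Eral1, which helps to build the small mitochondrial ribosomal subunit, Brca2 of homologous recombination and Pdcd6ip of membrane scission belong to the same set. Hsd11b2, which protects the mineralocorticoid receptor from corticosterone, is among the 45 but did not pass under propionate itself (-0.36, 95% interval -0.61 to -0.10, adjusted p = 0.075). It differed by 0.42 under saline.

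**Figure D4:**
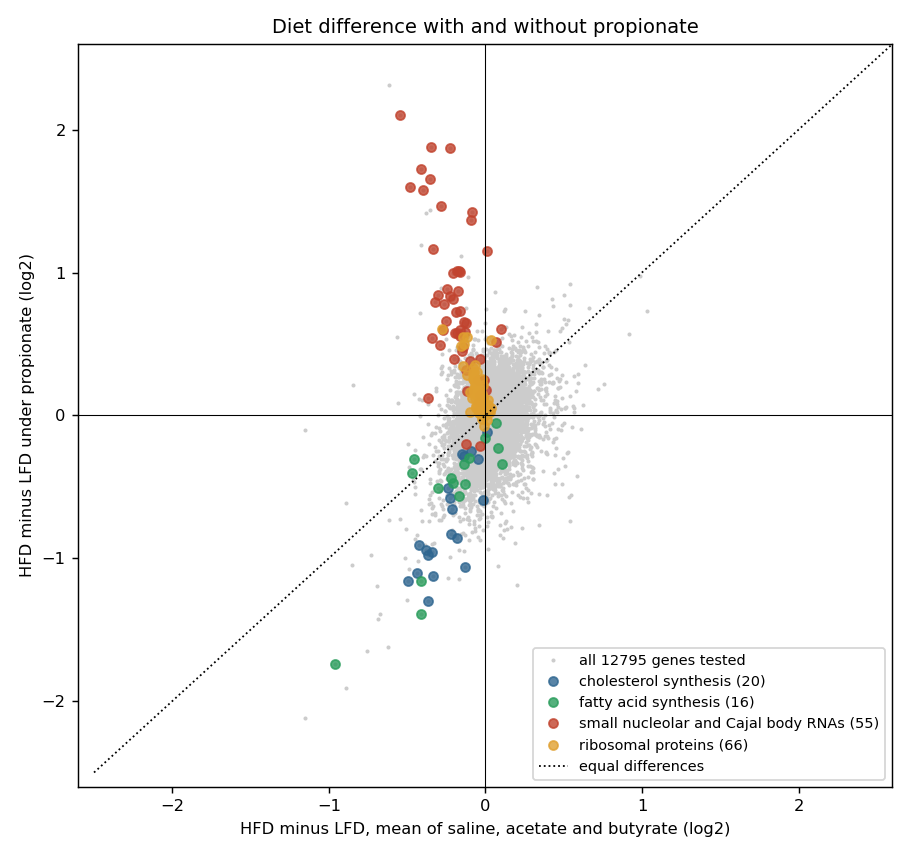
HFD minus LFD difference under propionate (y axis, log2) against the mean of the differences under saline, acetate and butyrate (x axis, log2) for the 12795 genes tested, with 4 gene lists in colour. Both axes use separate arrays. The small nucleolar and Cajal body RNAs lie mostly above 0 on the y axis (53 of 55) and mostly below 0 on the x axis (medians 0.65 and -0.17), and the cholesterol genes lie below 0 on y and mostly on x (medians -0.85 and -0.22).

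Under the other infusions singly the diets differed in no gene at this threshold (limma, 932, 986 and 469 genes at an unadjusted p below 0.05 for saline, acetate and butyrate). The mean over the 3 gave none either (2129 unadjusted). Across all 12795 genes, which are not independent of each other, the diet difference under propionate correlated with that over the other 3 at a Pearson r of 0.221 (Spearman 0.187). The 617 genes that fell under propionate had a median of -0.40 there and -0.03 over the other 3, and the 262 that rose had 0.38 and 0.01. These genes were picked for a large difference under propionate, so a smaller one elsewhere follows in part from the choice.

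**Figure D5:**
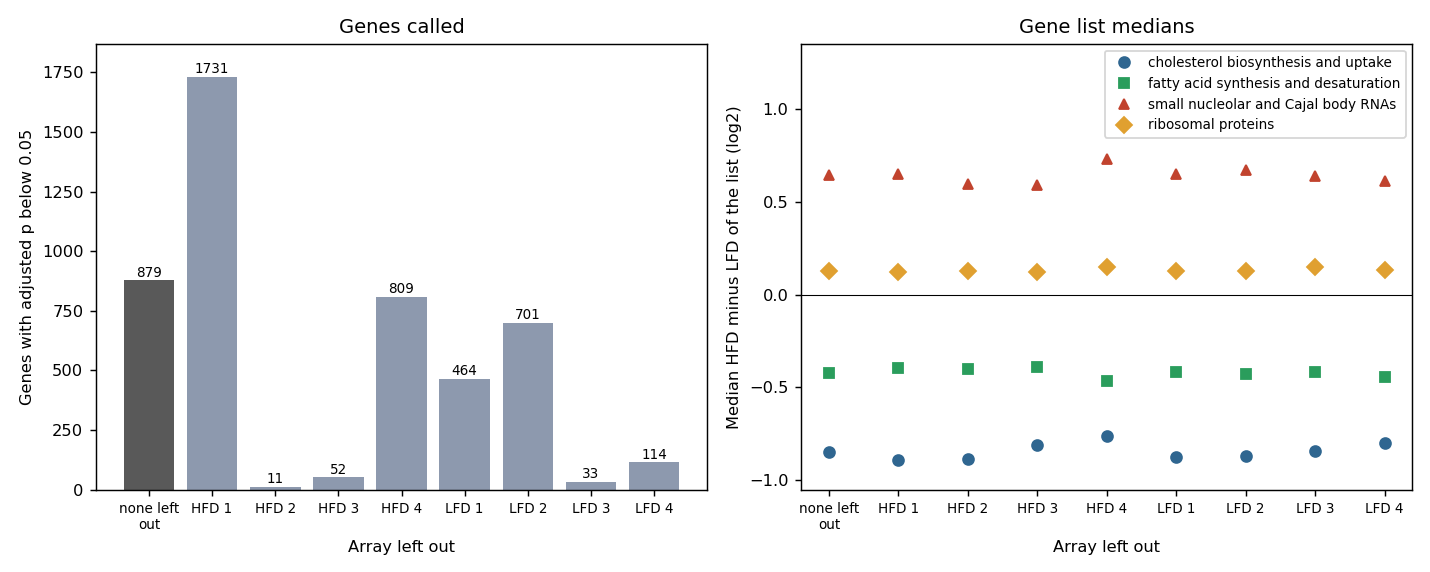
Left, the number of genes that passed between the diets under propionate with no array left out (879) and with each of the 8 arrays left out, from 11 without HFD 2 to 1731 without HFD 1. Right, the median difference of 4 gene lists (log2) in the same fits: the cholesterol list stayed between -0.89 and -0.76 and the small nucleolar and Cajal body RNAs between 0.59 and 0.73.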

How the data were processed

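Total RNA from colon scrapings (RNA integrity number above 8) was read on 1-colour whole-transcript arrays, per the labels' protocols. The values are log2 intensities summarised by RMA and deposited by the authors, per the submitters' processing notes. For RMA a version, and for the probe sets a genome build, is not given in the sources used here. Every value column was matched to a sample by its label. Of 35556 probe sets, 21218 had 1 gene symbol in the platform annotation, 1881 several and 12457 were not listed. A gene took its probe set of highest mean, and was tested if it reached an intensity of 20 on at least 3 arrays, which left 12795.

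limma 3.58.1 (R 4.3.3) was fitted to 31 arrays with 1 mean for each of 8 groups and eBayes with a trend, and checked on simulated data. The number of arrays limits the precision. Named genes were the 12 largest rises and falls (leaving out gene models without a descriptive name, microRNAs and small nucleolar RNAs), the 6 smallest p-values per direction in each other tested comparison, up to 6 passing members of each list (otherwise 3), and a fixed panel. The members and lists were chosen with earlier results of these data known. Alternatives were other filters, normalizations, models and replicate sets. Centring arrays on the tested median, and list counts by setting, were added after seeing the data. Sequences and gene classes came from RefSeq tables (GRCm38.p6).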

Additional observations from a re-analysis of the deposited data

Results flagged for a closer look

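Single arrays stood apart from the other 3 of their group in 10 of 182 groups examined, 78 for genes and 104 for lists, by Dixon's criterion, which chance meets in about 1 in 20 groups. Among the HFD arrays, HFD 1 was high for Slc39a10 (6.845, others 5.685 to 5.74), splicing regulators (list mean 9.073, others 8.956 to 8.975) and MHC class II (7.178, others 6.354 to 6.46), and low for general epithelial markers (11.06, others 11.2 to 11.22). HFD 4 was low for ribosomal proteins (10.8, others 10.93 to 10.94). Among the LFD arrays, LFD 2 was high for small-intestinal lipid absorption (8.481, others 6.824 to 6.967), and LFD 4 was low for small nucleolar RNAs (6.781, others 7.05 to 7.074). LFD 3 was high for fatty acid synthesis (8.744, others 8.671 to 8.677) and fibroblast markers (6.309, others 5.772 to 5.809), and low for immediate early genes (7.266, others 7.449 to 7.472).

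The diet difference under propionate differed from the mean of the other 3 infusions in 36 of the 245 named genes (limma, adjusted p below 0.05), and in Got1 (-0.8054), named after its values were seen. The difference of differences was positive for Rnu3a (2.928), Rnu12 (1.795), Vaultrc5 (1.794), Snhg17 (1.274), Rny1 (1.137), Rprl2 (0.8757), Malat1 (0.5767) and Stmn4 (0.4752). It was also positive for Snora74a (2.139), Snora20 (1.51), Snora44 (1.463), Snord55 (1.131), Snora7a (0.7911), Snora5c (0.7708), Snhg15 (0.6889), Snrnp70 (0.636), Safb2 (0.5087), Rbis (0.4858) and Rangrf (0.3304), and for the ribosomal protein genes Rpl24 (0.8876), Rps28 (0.6927), Rps12 (0.6671), Rps29 (0.6391), Rps27 (0.6327) and Rps3a1 (0.3643). It was negative for Zfp991 (-1.138), Brca2 (-0.8767), Eral1 (-0.5919), Ift20 (-0.5388), Pafah2 (-0.5123), Pdcd6ip (-0.2909), Lgals12 (-0.7383), Hsd11b2 (-0.6266), Mrpl10 (-0.3976), Mrps11 (-0.3856) and Gtf2h4 (-0.381). No gene passed this test without HFD 2, HFD 3, LFD 1, LFD 3 or LFD 4.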

How the results depend on the processing

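The 879 genes that differed between the diets under propionate became 2652 with array weights and 0 with the mean small nucleolar RNA level as covariate, and 11 to 1731 without single arrays. They numbered 792 (333 higher, 459 lower) after a further quantile normalization and 765 (378 higher, 387 lower) after centring on the tested median. Against saline the count of 0 became 101 with array weights, 1 when 4 arrays rich in lipid-absorption transcripts were dropped, and 0 to 13 without single arrays. Against the other 3 infusions the 105 became 39 with no filter (31 higher, 8 lower), 186 at a mean of at least 6 (84 higher, 102 lower), 67 without the trend, 1337 with array weights, 263 over all probe sets, 222 without those 4 arrays, 0 with the covariate and 0 to 664 without single arrays. Quantile normalization gave 97 (69 higher, 28 lower) and centring 106 (92 higher, 14 lower). The cause was not tested.

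With the replicate number as a block, the counts were 924, 11 and 175. Same-numbered HFD and LFD arrays under propionate had deviations correlated at r of -0.284, 0.175, -0.246 and -0.297, and under saline at 0.116 to 0.290. Over all groups 42 of 105 same-numbered pairs exceeded 0.1, so not every pair did and the block was kept as an alternative only.

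Under the covariate 9 named genes reversed: Rnu3a (-0.117), Rnu12 (-0.287), Rnu2-10 (-0.248), Rny1 (-0.125), Rmrp (-0.167), Safb2 (-0.0563), Rps29 (-0.0744), Snhg20 (-0.00475) and Suclg2 (0.0411). Of the 114 named genes that passed, 107 lost the call without HFD 2, 97 without LFD 3, 96 without HFD 3 and 80 without LFD 4.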
